A study of Mus musculus with 8 samples.

Results

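Mitochondrial ribosomal protein genes are nuclear genes whose proteins build the ribosome inside mitochondria. They were taken here as every gene named Mrpl or Mrps followed by a number that had an array row with exactly 1 gene symbol, using the row of highest mean level where a gene had several. The rule found 71 genes among the 22180 measured, 43 of the large subunit (Mrpl) and 28 of the small subunit (Mrps), and all 71 were tested, with no filter on low values. The rule itself used no measured difference between the groups, but the members were chosen with earlier results of these data known. RefSeq lists 78 protein-coding genes of this name in the mouse, and the other 7 (Mrpl30, Mrpl33, Mrpl41, Mrpl43, Mrpl44, Mrpl53 and Mrps6) were measured only on rows that they share with another gene.

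The 8 Affymetrix arrays held total RNA of hepatic macrophages, 4 from mice that received recombinant carbamoyl phosphate synthetase 1 (rCPS1) and 4 from mice given recombinant transferrin (rTF), to ask how rCPS1 alters these cells in acetaminophen injury. CPS1 is a urea cycle enzyme of liver mitochondria, and transferrin, the iron carrier of plasma, served as the comparison protein. All 8 samples came from male FVB/N mice aged 8 weeks that also received 350 mg/kg acetaminophen into the peritoneum, so the rTF group is an injured group and not an untreated one. The proteins had been injected into the tail vein 12 h before acetaminophen, 50 µg of rCPS1 or 25 µg of rTF, so protein and amount cannot be told apart. Every sample title names Mouse1, so whether the samples within each group are different animals is not settled by the labels. A p-value here thus reflects the scatter among the samples alone, and that scatter could be technical. Values are log2 expression levels made with RMA, differences are rCPS1 minus rTF on that scale, and a negative difference is a lower level with rCPS1.

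The mitochondrial ribosome translates the few messages of mitochondrial DNA, which encode core subunits of the respiratory chain and of ATP synthase. Its RNAs come from mitochondrial DNA, but its proteins are made in the cytosol and imported, so they depend on nuclear transcription. The factors NRF1, YY1 and those of the ETS family (GABP among them) are known to act on many nuclear genes of mitochondria.

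The start regions of these genes are shown first, as a feature of nuclear control that the choice of members did not use. Promoters of 250 bases before to 50 after the start were available for 62 of the 71 members in RefSeq (GRCm38.p6). Mrpl38, Mrpl4, Mrpl19, Mrpl15, Mrps28, Mrps34, Mrps35, Mrpl13 and Mrpl54 had none in that table. Both strands were searched for the NRF1 motif GCGCANGCG, the ETS motif CCGGAAG and the YY1 motif AAGATGGC. The stretches below hold the 150 bases before the start, 5′ to 3′ on the plus strand, with motif matches in capitals. Mrpl9, Mrps26 and Mrpl36 are the members of lowest p that hold the NRF1, ETS and YY1 motif, respectively, in this stretch. Mrpl9 was chosen for this alone, after its values were seen. Mrpl14 and Mrpl28 had an unadjusted p under 0.05 and held no match in the stretch printed. Past that stretch, Mrpl14 did hold an NRF1 match, with its first base at 5 from the start. Mrps26 also held NRF1 matches with first bases at -2 and 5, which the stretch does not show in full. Mrpl9 lies at chr3:94443186-94443335, Mrps26 at chr2:130563607-130563756, Mrpl36 at chr13:73330859-73331008, Mrpl14 at chr17:45686199-45686348 and Mrpl28 at chr17:26123353-26123502.
Mrpl9: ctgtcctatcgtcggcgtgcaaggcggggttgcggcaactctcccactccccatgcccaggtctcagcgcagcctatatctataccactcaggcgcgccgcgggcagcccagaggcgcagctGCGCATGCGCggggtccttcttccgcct
Mrps26: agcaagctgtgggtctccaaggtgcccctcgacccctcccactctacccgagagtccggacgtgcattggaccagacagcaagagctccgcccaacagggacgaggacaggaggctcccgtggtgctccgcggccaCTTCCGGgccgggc
Mrpl36: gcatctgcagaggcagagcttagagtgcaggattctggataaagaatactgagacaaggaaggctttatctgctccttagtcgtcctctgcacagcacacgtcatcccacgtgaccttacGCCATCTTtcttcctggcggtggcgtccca
Mrpl14: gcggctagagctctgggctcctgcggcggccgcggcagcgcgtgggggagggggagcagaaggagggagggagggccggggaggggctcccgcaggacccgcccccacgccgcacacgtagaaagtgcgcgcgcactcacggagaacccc
Mrpl28: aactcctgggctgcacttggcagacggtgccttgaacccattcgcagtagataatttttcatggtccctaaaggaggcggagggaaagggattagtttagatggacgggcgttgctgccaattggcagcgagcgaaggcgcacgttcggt
In Mrpl36 and Mrps26 the capitals are the motif read on the opposite strand, and in Mrpl9 they cover overlapping matches of the NRF1 motif on both strands.

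Across the 62 members with a promoter, 14 (22.6%) held the NRF1 motif, against 9.72% of the 16918 array genes with a promoter. The ETS motif was in 23 members (37.1%), against 12.7% of array genes. The YY1 motif was in 12 members (19.4%), against 3.65% of array genes. At least 1 of the 3 motifs was in 39 members (62.9%, against 22.7%), at least 2 were in 10 members and all 3 in 0. Genes of cytosolic ribosomal proteins held the ETS motif in 43.1%, the NRF1 motif in 19.6% and the YY1 motif in 5.88% of the 51 with a promoter. Matches of different motifs overlapped in 5 of all 32851 promoters searched. A match describes letters and was not tested as a binding site. The median difference between the groups was -0.12 in the 14 members with the NRF1 motif and -0.12 in the 48 without. It was -0.14 in the 23 with the ETS motif and -0.10 in the 39 without, and -0.10 in the 12 with the YY1 motif and -0.12 in the 50 without.

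Facts of the whole array set bear on these genes as follows. The median level of an array lay between 3.55 and 3.68, and arrays correlated at r = 0.967 to 0.983 across rows, which are not independent. No gene of the 22180 passed at an adjusted p under 0.05 in limma (Benjamini-Hochberg), where the smallest adjusted p was 0.862 and 1035 genes (4.67%) had an unadjusted p under 0.05. All 12 Kupffer cell markers lay above the median level of all rows, with a mean level of 9.41 to 9.97 with rTF and 9.495 to 10.19 with rCPS1. So did all 11 measured hepatocyte markers (6.99 to 7.49 and 6.86 to 7.54) and all 10 sinusoidal endothelial markers (11.29 to 11.52 and 11.37 to 11.52), so the samples held RNA of other liver cells. The array rTF replicate 2 stood apart in markers of T and NK cells, as given below. In bulk samples of this kind, fewer cells of a type and less RNA per cell cannot be told apart.

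Most mitochondrial ribosomal protein genes lay lower with rCPS1, each by a small amount that did not pass the test. The difference was below 0 in 59 of 71 members (83.1%), while 54.4% of all genes lay lower, and above 0 in 12, while 45.6% of all genes lay higher. Its median was -0.12 over the members and -0.02 over all genes, and its range was -0.45 to 0.16. No member had an adjusted p under 0.05 (smallest 0.98, limma), with 0.0% of all genes called. At an unadjusted p under 0.05 there were 3 members lower, against a background of 2.79%, and 0 higher, against 1.88%. The groups did not overlap in 1 member, where 2.92% of all genes did not overlap in either direction. This member was lower, against 1.97% of all genes, and 0 members were higher without overlap, against 0.947%. The standard error of a member's difference lay between 0.10 and 0.24, with a median of 0.15.

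**Figure D1:**
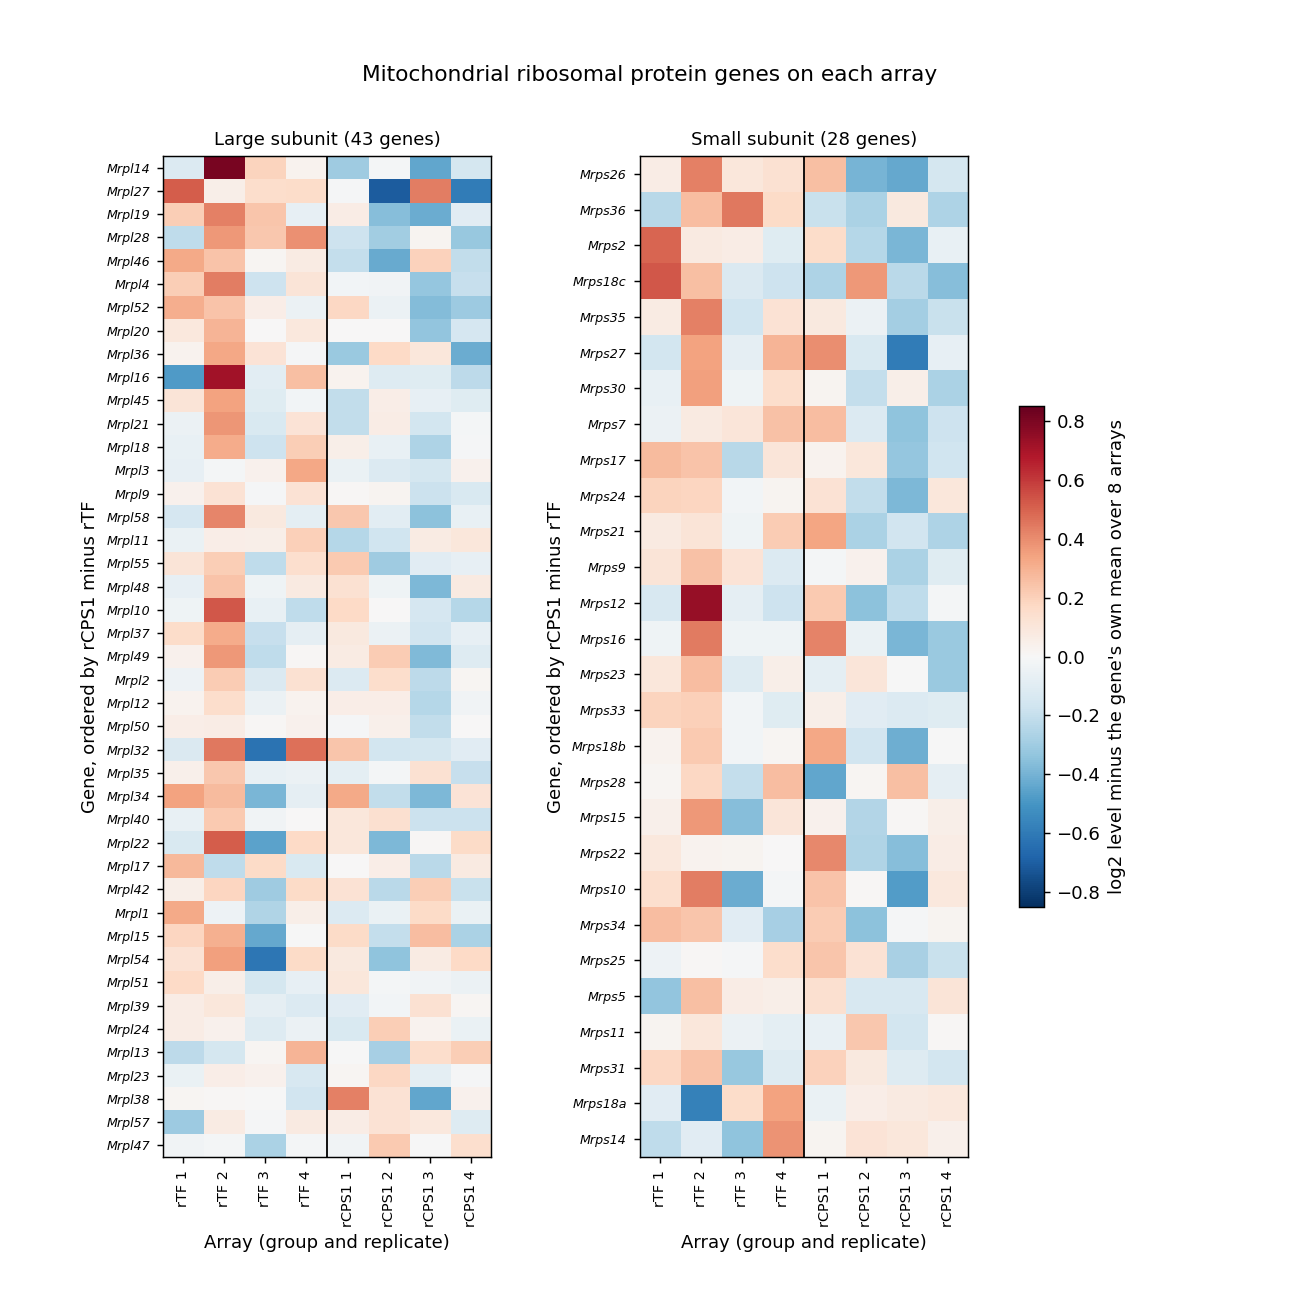
Log2 departure of each of the 71 genes from its own mean over the 8 arrays (colour), with genes in lines and arrays in columns, 4 rTF and 4 rCPS1. The column of rTF replicate 2 is above the genes' means for 64 of 71 genes, and that of rCPS1 replicate 3 is lowest for 31.

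The arrays of a group did not lie alike, and leaving out rTF replicate 2 moved the mean difference towards 0 more than leaving out any other array. The mean departure of the 71 genes from their own means over 8 arrays was 0.04, 0.23, -0.08 and 0.06 in rTF replicates 1 to 4. It was 0.05, -0.07, -0.14 and -0.09 in rCPS1 replicates 1 to 4. The groups overlapped, since rTF replicate 3 lay below 2 of the rCPS1 arrays and rCPS1 replicate 1 lay above rTF replicates 1 and 3. The array rTF replicate 2 was the highest of the 8 for 35 members (49.3%), against 39.4% of cytosolic ribosomal protein genes and 19.9% of all genes. The array rCPS1 replicate 3 was the lowest for 31 members (43.7%), against 33.3% and 16.3%. Both arrays thus stood out in the cytosolic family as well. The array rCPS1 replicate 4 was the highest for 0 members, against 13.9% of all genes. For 13 members (18.3%, against 13.4% of all genes) rTF replicate 3 was the lowest.

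Without rTF replicate 2, 47 of 71 members (66.2%) lay lower with rCPS1, against 52.5% of all genes. The mean difference over members then moved from -0.12 to -0.07 and the median from -0.12 to -0.06. An unadjusted p under 0.05 was then reached by 0 members. The share of all genes with such a p was not taken for that fit, so this count is no result about the members. Without rCPS1 replicate 3, 53 members lay lower (74.6%, against 52.6% of all genes), and the mean difference was -0.10. It was further from 0 without rTF replicate 3 (-0.17) and without rCPS1 replicate 1 (-0.16). The 10 measured T and NK cell markers had a mean level of 7.44 in rTF replicate 2, where the other rTF arrays had 6.08, 6.36 and 6.44. With rCPS1 they had 6.21, 5.86, 6.40 and 5.86. Their part in the level of the mitochondrial ribosomal protein genes was not tested.

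**Figure D2:**
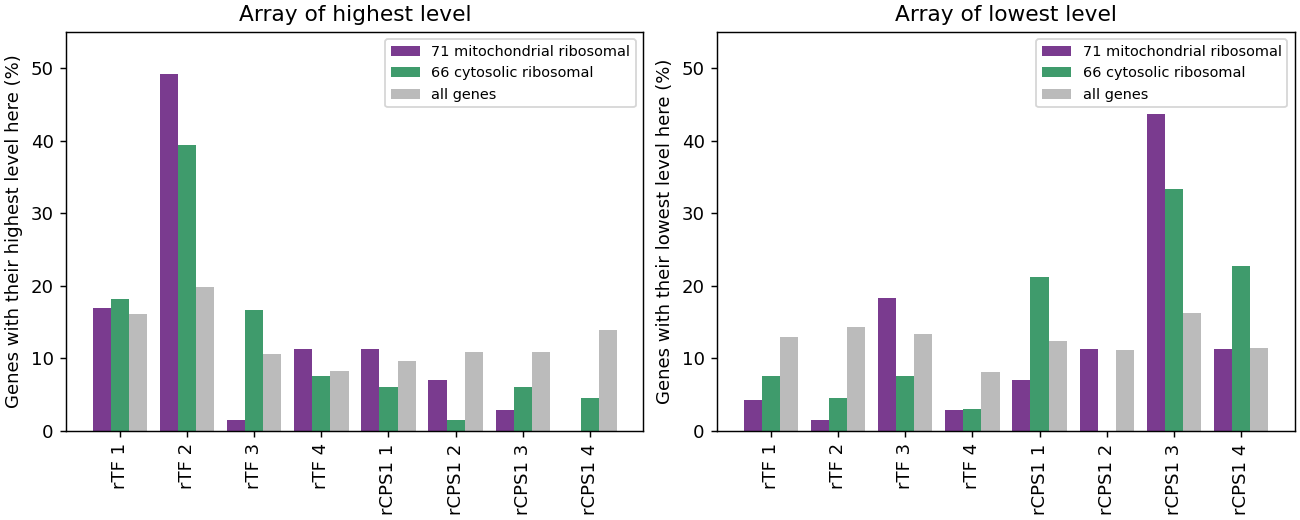
Percent of genes for which each array holds the highest level (left) and the lowest level (right) of the 8, for the mitochondrial ribosomal protein genes, cytosolic ribosomal proteins and all genes. The array rTF replicate 2 holds the highest level of 49.3% of the mitochondrial ribosomal protein genes, of 39.4% of the cytosolic ones and of 19.9% of all genes.

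The spread of a member over the 8 arrays was like that of other genes, with a median SD of 0.22 over the members and 0.22 over all genes. The SD was larger in the rTF group for 40 of 71 members, while this held for 54.3% of all genes. Member levels averaged from 2.51 (Mrps36) to 8.37, and 3 members (Mrps36, Mrpl48 and Mrps14) lay below the median level of all rows, where a row may hold little more than background.

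Among large subunit genes, 35 of 43 lay lower and 8 higher with rCPS1. The mean departure of these genes was 0.06 ± 0.13 in the rTF arrays against -0.06 ± 0.05 in the rCPS1 arrays (SD, n = 4 each). The mean difference was -0.12. The 4 rTF arrays gave 0.04, 0.23, -0.09 and 0.06, and the 4 rCPS1 arrays gave 0.02, -0.07, -0.10 and -0.08. The array rTF replicate 3 lay below 3 of the rCPS1 arrays, so the groups overlapped, and without rTF replicate 2 the difference was -0.06.

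Mrpl14 had the largest lower difference of the family. Its protein is the counterpart of bacterial L14, which sits on the face of the large subunit that meets the small one. Its level was 4.39, 5.31, 4.69 and 4.53 with rTF and 4.20, 4.49, 4.06 and 4.36 with rCPS1. The highest array was rTF replicate 2, and rCPS1 replicate 2 lay above rTF replicate 1, so the groups overlapped. The means were 4.73 ± 0.41 and 4.28 ± 0.18 (SD, n = 4), a difference of -0.45 ± 0.20 (SE), or 1.37-fold lower, with an adjusted p of 0.98 in limma. Its unadjusted p was 0.0439 in the same fit, and without rTF replicate 2 the difference was -0.26.

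Mrpl19 is the counterpart of bacterial L19, another protein at the boundary of the subunits. Its level was 5.51, 5.73, 5.53 and 5.23 with rTF and 5.36, 4.94, 4.87 and 5.20 with rCPS1. Only rCPS1 replicate 1 lay within the rTF range. The difference was -0.40 ± 0.15 (SE), with an unadjusted p of 0.0228 and an adjusted p of 0.98 in limma. A second row, which Mrpl19 shares with Gcfc2, differed by -0.11.

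Mrpl28, the counterpart of bacterial L28, had levels of 3.49, 4.07, 3.94 and 4.09 with rTF and 3.53, 3.41, 3.73 and 3.38 with rCPS1. The overlap came from rTF replicate 1, which lay below 2 of the rCPS1 arrays. The difference was -0.39 ± 0.16 (SE), with an unadjusted p of 0.0331 and an adjusted p of 0.98 in limma. The gene lies just under the middle of the array's levels with rCPS1, whose mean was 3.51 against a median of 3.60 over all rows.

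Mrpl20 was the member whose groups did not overlap. Its bacterial counterpart L20 binds ribosomal RNA early in the building of the large subunit. Its level was 5.78, 5.97, 5.69 and 5.78 with rTF and 5.69, 5.69, 5.35 and 5.55 with rCPS1. The lowest rTF array exceeded the highest rCPS1 array by 0.0023, so the separation was marginal. The difference was -0.24 ± 0.12 (SE), with an unadjusted p of 0.0770 and an adjusted p of 0.98 in limma. Groups without overlap always give the smallest two-sided exact permutation p of 4 against 4 arrays, 0.0286, so that p adds nothing to the choice of this gene.

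**Figure D3:**
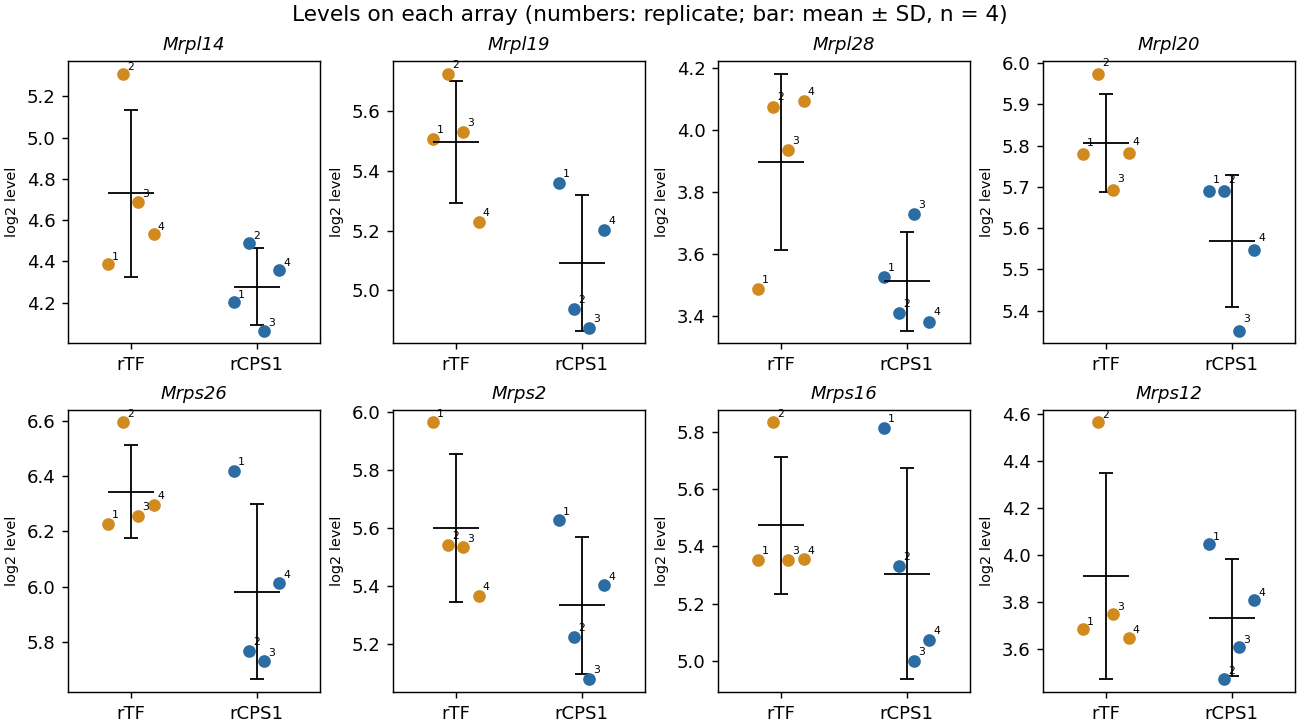
Log2 level of selected genes in each array (points, numbered by replicate), rTF and rCPS1 side by side, with bars at the mean ± SD (n = 4) and a y axis of its own in each panel. In Mrpl20 the 4 rCPS1 values lie below the 4 rTF values, and in the other panels the groups overlap.

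Mrpl27 varied most of all members, with an SD of 0.44 over the 8 arrays. Its bacterial counterpart reaches towards the site where peptide bonds are made. Its level was 4.92, 4.46, 4.56 and 4.56 with rTF and 4.40, 3.70, 4.84 and 3.81 with rCPS1. The array rCPS1 replicate 3 lay within the rTF range and the others below it, and the difference was -0.44 ± 0.24 (SE). Mrpl32, which in yeast and mouse is cut by a mitochondrial inner membrane protease before it is built in, varied most within the rTF group. Its level was 5.39, 5.96, 4.88 and 5.98 with rTF and 5.75, 5.35, 5.36 and 5.42 with rCPS1, a difference of -0.08 ± 0.23 (SE).

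The large subunit carries a stalk that recruits translation factors, made of Mrpl10, Mrpl12 and the neighbouring Mrpl11. Mrpl12, which in human cells also binds the mitochondrial RNA polymerase, had levels of 5.52, 5.65, 5.45 and 5.53 with rTF and 5.55, 5.55, 5.25 and 5.46 with rCPS1. The groups overlapped, with a difference of -0.08 ± 0.11 (SE). Mrpl10 differed by -0.11 ± 0.17 and Mrpl11 by -0.13 ± 0.12. Mrpl10 turned to 0.05 without rTF replicate 2, the array in which its level was highest at 7.56.

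Mrpl3, a protein near the peptidyl transferase site, differed by -0.14 ± 0.12 (SE). Mrpl36, a small zinc-binding protein in its bacterial form, differed by -0.23 ± 0.16. Mrpl58, a peptidyl-tRNA hydrolase that became part of the ribosome and can free stalled chains, differed by -0.14 ± 0.16, with its highest level of 7.35 in rTF replicate 2. In each of these the groups overlapped.

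The steadiest large subunit genes were Mrpl50, Mrpl39 and Mrpl23. Mrpl39 ranged from 7.55 to 7.80 over the 8 arrays and differed by 0.01 ± 0.11 (SE). Mrpl50 had an SD of 0.02 within rTF and 0.11 within rCPS1, and differed by -0.08 ± 0.10. Mrpl23, which lies by the exit of the peptide tunnel, differed by 0.05 ± 0.11. The genes highest with rCPS1 were Mrpl47 (0.16 ± 0.11), Mrpl57 (0.08 ± 0.12), Mrpl38 (0.07 ± 0.17) and again Mrpl23. A row that Mrpl47 shares with Actl6a differed by -0.27, opposite in sign to its own row.

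Among small subunit genes, 24 of 28 lay lower and 4 higher, with 0 at an unadjusted p under 0.05 and 0 without overlap. With 2.79% of all genes lower at such a p and 1.97% lower without overlap, a count of 0 among 28 is near the background. The mean departure was 0.07 ± 0.11 in the rTF arrays against -0.07 ± 0.13 in the rCPS1 arrays (SD, n = 4 each). The mean difference was -0.13. The 4 rTF arrays gave 0.05, 0.22, -0.06 and 0.06, and the 4 rCPS1 arrays gave 0.11, -0.08, -0.20 and -0.10. The array rCPS1 replicate 1 lay with the rTF arrays. Without rTF replicate 2 the difference was -0.08.

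Mrps26, a small subunit protein that bacteria lack, had the largest lower difference of the small subunit, and its start region carries the ETS motif shown above. Its level was 6.23, 6.59, 6.26 and 6.29 with rTF and 6.42, 5.77, 5.73 and 6.01 with rCPS1. The array rCPS1 replicate 1 lay above 3 of the rTF arrays, and the other rCPS1 arrays lay below all 4. The difference was -0.36 ± 0.17 (SE), with a 95% interval of -0.73 to 0.01 and an unadjusted p of 0.0562 in limma.

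Mrps36 came next in size, from the dimmest row of the family. Its level was 2.27, 2.78, 2.96 and 2.68 with rTF and 2.32, 2.24, 2.60 and 2.25 with rCPS1, a difference of -0.32 ± 0.16 (SE). In mammals its protein is known as a part of the 2-oxoglutarate dehydrogenase complex and not of the ribosome. Mrps2, counterpart of bacterial S2, had levels of 5.96, 5.54, 5.53 and 5.36 with rTF and 5.62, 5.22, 5.08 and 5.40 with rCPS1. The ranges overlapped, and the difference was -0.27 ± 0.16.

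Mrps12 and Mrps16 were set apart by single arrays. Mrps12, counterpart of the bacterial protein at the decoding centre, had levels of 3.68, 4.56, 3.75 and 3.65 with rTF and 4.05, 3.47, 3.61 and 3.81 with rCPS1. Its difference of -0.18 ± 0.22 (SE) turned to 0.04 without rTF replicate 2. Mrps16 had levels of 5.35, 5.83, 5.35 and 5.36 with rTF and 5.81, 5.33, 4.999 and 5.07 with rCPS1, a difference of -0.17 ± 0.19. In both genes 1 array of the rTF group stood above the other 3, which lay close together.

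Proteins of the head of the small subunit include Mrps7 and Mrps9, which differed by -0.19 ± 0.14 and -0.18 ± 0.12 (SE). Mrps22, Mrps27, Mrps34 and Mrps35 have no bacterial counterpart. They differed by -0.07 ± 0.16, -0.20 ± 0.21, -0.06 ± 0.16 and -0.23 ± 0.15. Mrps27, an RNA-binding protein of the pentatricopeptide repeat class, ranged from 5.41 to 5.91 with rTF and from 4.97 to 5.96 with rCPS1. A row that Mrps27 shares with 6430562O15Rik differed by 0.48, and one that Mrps34 shares with Nme3 by -0.40, so these shared rows differed from the genes' own rows in sign or size.

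The relatives of bacterial S18 are 3 genes in mammals. Mrps18c differed by -0.24 ± 0.20 (SE), Mrps18b by -0.12 ± 0.16 and Mrps18a by 0.08 ± 0.18. In Mrps18a rTF replicate 2 was the lowest array, at 5.34, with the other 3 rTF arrays between 5.82 and 6.26. The highest with rCPS1 were Mrps14 (0.14 ± 0.15), Mrps18a, Mrps31 (0.01 ± 0.15) and Mrps11 (0.01 ± 0.12). Mrps15 differed by -0.08 ± 0.16, Mrps33 by -0.13 ± 0.11 and Mrps30 by -0.20 ± 0.13.

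**Figure D4:**
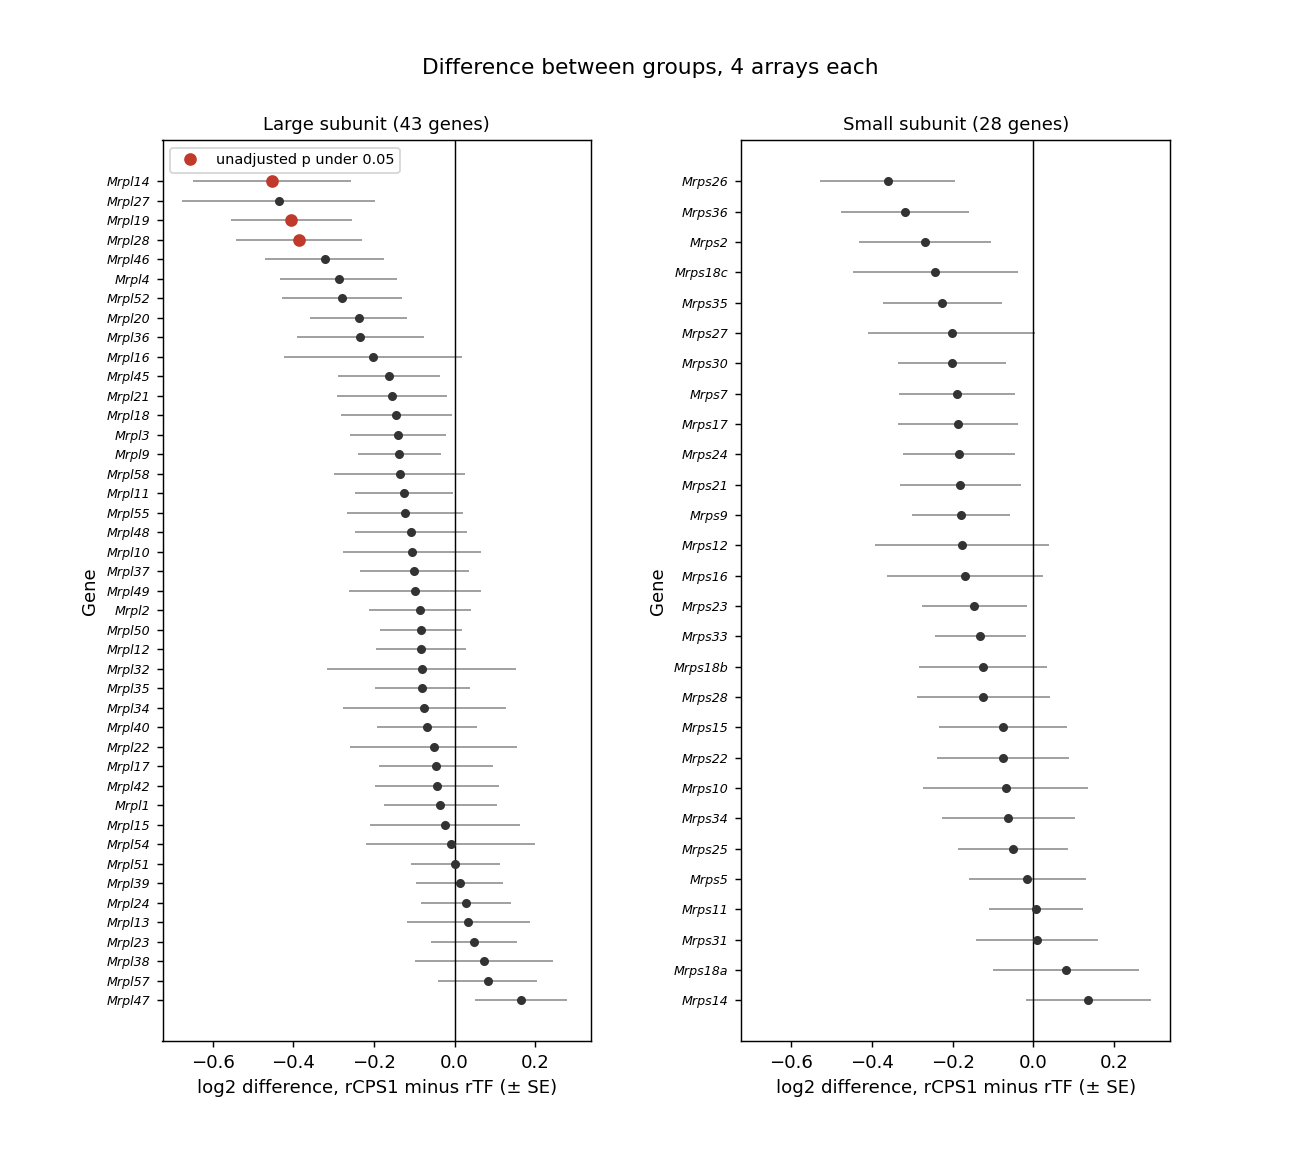
Difference of each of the 71 genes, rCPS1 minus rTF on the log2 scale, with bars of ± 1 SE from limma, large and small subunit genes apart and sorted by size. Points lie left of 0 for 59 genes, and the 3 with an unadjusted p under 0.05, Mrpl14, Mrpl19 and Mrpl28, are red.

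The 2 subunits did not differ in their response beyond the spread between arrays. The mean departure of large minus small subunit genes was -0.02, 0.02, -0.03 and 0.00 in the rTF arrays. In the rCPS1 arrays it was -0.09, 0.02, 0.09 and 0.01. The group means were -0.01 ± 0.02 and 0.01 ± 0.08 (SD, n = 4), a difference of 0.01, smaller than either SD. Mrps18a and Mrps30 carry small subunit names but are known from mammalian structures as large subunit proteins. With both moved there and Mrps36 left out, an arrangement chosen after seeing the data, 36 of 45 large and 22 of 25 small subunit genes lay lower, with mean differences of -0.12 and -0.13.

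Genes measured only on shared rows were not tested. Their rows differed by 0.22 for Mrpl30, -0.22 and -0.00 for the pair of rows of Mrpl33, -0.09 for Mrpl41, -0.39 for Mrpl43, -0.16 for Mrpl44, -0.20 and -0.05 for Mrpl53, and 0.39 for Mrps6. Mrpl43 shares its row with Twnk, the helicase of mitochondrial DNA, and Mrps6 with Slc5a3, an inositol transporter, so the values cannot be given to 1 gene.

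Genes that work with the mitochondrial ribosome had median differences nearer 0 where a median was taken, a contrast that was not tested. Of its proteins with other names, 3 of 5 were measured, Dap3 (-0.12 ± 0.13, SE), a GTP-binding small subunit protein, Ptcd3 (0.10 ± 0.14), a pentatricopeptide repeat protein of the small subunit, and Gadd45gip1 (0.03 ± 0.15), a large subunit protein. Of mitochondrial translation factors, 12 of 15 measured lay lower, with a median of -0.04, and without rTF replicate 2 only 5 of 15 did. The 2 of smallest p were Mtif3, an initiation factor (-0.32 ± 0.17), and Guf1, an elongation factor relative (-0.18 ± 0.12). Their levels in rTF replicate 2, 5.23 and 5.85, were the highest of the 8 arrays.

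Of 26 assembly factors, 17 lay lower (median -0.07), but only 11 did without rTF replicate 2 (42.3%, against 52.5% of all genes). At an unadjusted p under 0.05 there was 1 lower (3.85%, against 2.79% of all genes). This was Trub2, a pseudouridine synthase linked to the large subunit's RNA, with levels of 5.41, 5.76, 5.49 and 5.56 with rTF and 5.15, 5.44, 5.39 and 5.04 with rCPS1 (-0.30 ± 0.13, SE). Of 19 mitochondrial aminoacyl-tRNA synthetases, 13 lay lower both with and without rTF replicate 2 (median -0.07 and -0.04). At an unadjusted p under 0.05 there was 1 lower (5.26%, against 2.79% of all genes). It was the arginine enzyme Rars2, with an unadjusted p of 0.0380 in limma (-0.32 ± 0.13). Its level was 4.96, 4.97, 4.65 and 5.04 with rTF and 4.60, 4.78, 4.63 and 4.33 with rCPS1, so rTF replicate 3 lay within the rCPS1 range.

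Genes of mitochondrial DNA transcription and upkeep did not lean one way, with 8 lower and 7 higher of 15 (median -0.00). At an unadjusted p under 0.05 there was 1 of 15 higher with rCPS1, against 1.88% of all genes. This was Polg2, the accessory subunit of the mitochondrial DNA polymerase (0.33 ± 0.14, SE, unadjusted p = 0.0422 in limma). Its level was 7.04, 6.84, 7.18 and 6.67 with rTF and 7.04, 7.46, 7.26 and 7.31 with rCPS1. The groups overlapped, since rTF replicate 3 lay above rCPS1 replicate 1. Of 10 nuclear regulators, 3 lay lower and 7 higher, among them Ppara, a fatty acid receptor (0.37 ± 0.20), and Gabpb1, a partner subunit of the ETS factor GABP (-0.24 ± 0.13). All of these had an adjusted p of 0.98.

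Cytosolic ribosomal proteins, which build the ribosome outside mitochondria, also leaned lower. Of the 66 measured, 54 lay lower with a median of -0.12 and a range of -0.68 to 0.58. At an unadjusted p under 0.05 there were 5, each of them lower (7.58%, against 2.79% of all genes), and 6 were lower without overlap (9.09%, against 1.97%). Counted by level, 54 of the 66 lay at or above the median level of all rows, and the rest were dimmer. Their mean departure was 0.02, 0.09, 0.05 and 0.06 in the rTF arrays and -0.05, -0.01, -0.08 and -0.08 in the rCPS1 arrays. These values did not overlap between the groups, while those of the mitochondrial ribosomal protein genes did. Without rTF replicate 2 the mean difference of the cytosolic family moved from -0.11 to -0.10 and its median from -0.12 to -0.07. The difference between the families was not tested.

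Nuclear genes of the respiratory chain and ATP synthase encode proteins that join those made by the mitochondrial ribosome. Of 79, 50 lay lower with a median of -0.05, and 0 had an unadjusted p under 0.05, against 4.67% of all genes. Their difference from the mitochondrial ribosomal protein genes was not tested. The departures were 0.05, 0.12, -0.13 and 0.04 with rTF and 0.09, -0.05, -0.07 and -0.05 with rCPS1. As in the mitochondrial ribosomal protein genes, rTF replicate 2 was highest and rTF replicate 3 was low. Without rTF replicate 2 the mean difference moved from -0.04 to -0.01.

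**Figure D5:**
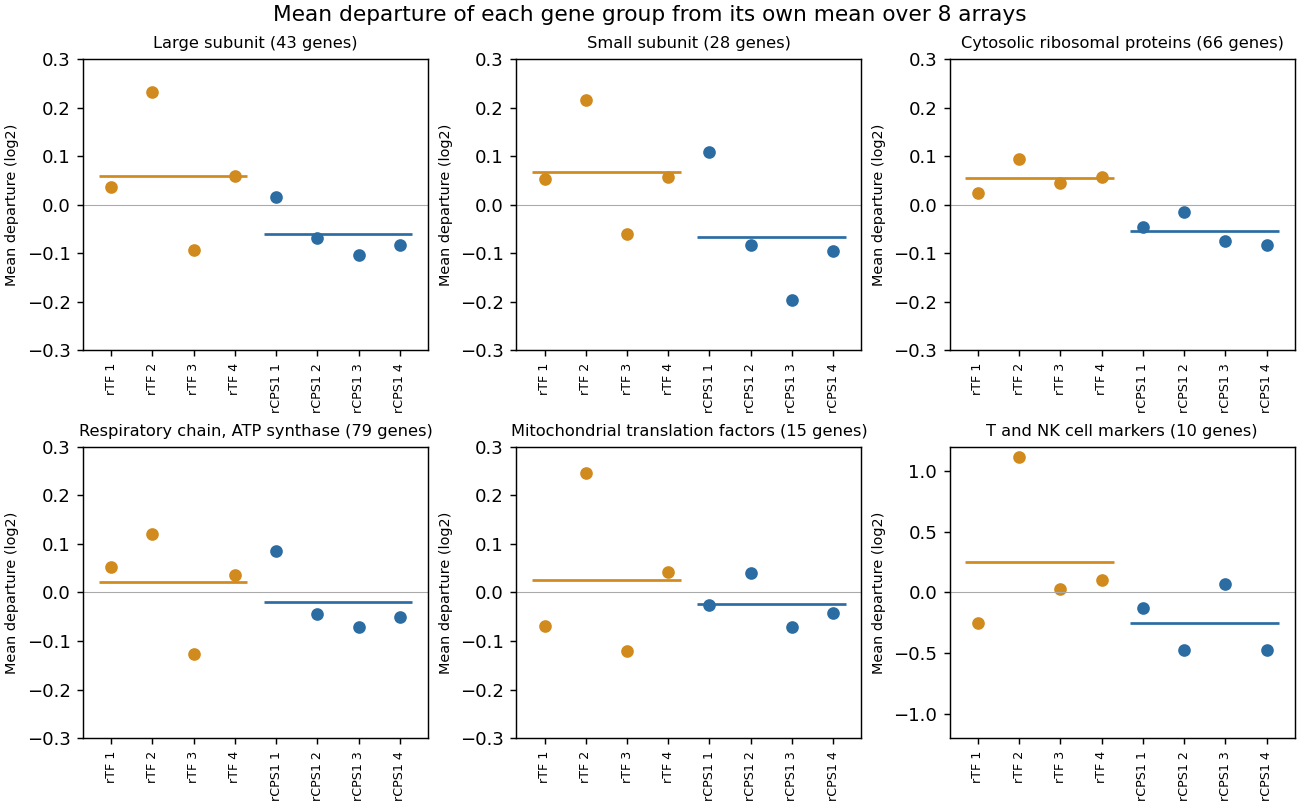
Mean log2 departure of each gene group from its mean over the 8 arrays, by array (points), with the group means as lines. All panels share a y axis except that of T and NK cell markers, which is wider, where rTF replicate 2 lies 1.11 above the mean and the other arrays between -0.47 and 0.10.

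Markers of immune cells, Kupffer cells included, did not all lean the same way beside these genes. All 9 measured monocyte markers lay lower with rCPS1, with mean levels of 8.68, 8.68, 9.03 and 8.60 with rTF and 8.12, 8.18, 7.93 and 8.03 with rCPS1. All 10 neutrophil markers lay lower, with 6.58, 7.12, 7.36 and 6.80 with rTF and 5.76, 6.26, 6.21 and 5.17 with rCPS1. In both lists the groups did not overlap, and rTF replicate 3, where the mitochondrial ribosomal protein genes were low, was the highest array. Of the T and NK cell markers 9 of 10 lay lower, and without rTF replicate 2 their mean difference moved from -0.50 to -0.21. All 5 measured B cell markers lay higher with rCPS1 (median 0.16), as did 9 of the 12 Kupffer cell markers (median 0.15). The B cell groups overlapped, with mean levels of 5.48 to 6.47 with rTF and 5.53 to 6.68 with rCPS1. Those of the Kupffer cell markers overlapped too, and without rCPS1 replicate 3 their mean difference moved from 0.14 to 0.01. The part of these cells in the levels of the mitochondrial ribosomal protein genes was not tested.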

How the data were processed

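Total RNA of hepatic macrophages was hybridised as biotinylated cDNA, per the labels' protocols made with the WT Plus kit from 400 ng. The deposited values are log2 levels that the authors made with RMA, per the submitters' processing notes, which also name limma and give no versions. RMA gives all arrays a common distribution, so a shift of nearly all genes would not show. The isolation of the cells, the time from acetaminophen to isolation and the build of the array design are not given in the sources used here.

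Of 41345 rows, 23521 had exactly 1 gene symbol, 1814 had several and 16010 none. By Entrez ID 23328 matched RefSeq (GRCm38.p6), as did all 71 members. The row of highest mean was used for the 1082 genes with several. The groups were compared in R 4.3.3 by a two-sided linear model without covariate (limma 3.58.1, lmFit, then eBayes), with Benjamini-Hochberg adjustment over 22180 genes at 0.05. The fit was also run on simulated data with genes drawn independently of each other, which does not show how it performs on these arrays. Samples were grouped by title. The number of arrays limits the precision. Python 3.11.15 and pandas 2.3.3 made the summaries.

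The members and lists were chosen with earlier results of these data known, so no list was tested. Genes are named by rule, per subunit: an unadjusted p under 0.05, groups without overlap, the 4 largest differences in each direction, the 3 smallest and 3 largest SDs, and genes chosen for their role. In the other lists they are those with an unadjusted p under 0.05 or the 2 of smallest p. The alternatives left out rows dimmer than the median row, or used array weights (statmod 1.5.0), a robust trended variance, a replicate block, quantile normalization, the mean or the lowest of a gene's rows, medians, centred arrays and each array left out. No member symbol was that of a pseudogene, so leaving pseudogenes out changed no member.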

Additional observations from a re-analysis of the deposited data

Results flagged for a closer look

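In groups of 4 arrays, 7 of 102 groups of values held an array far from the other 3 by Dixon's criterion, where chance gives about 1 in 20, or 5.1. The genes flagged were all among those named by rule, some of them for their spread or difference. The rate of 1 in 20 need not hold for genes chosen that way. In the rTF group, replicate 2 was high for Mrps12 (4.56, others 3.65 to 3.75) and for Mrps16 (5.83, others 5.35 to 5.36). Replicate 3 was low for Mrpl47 (4.33, others 4.57 to 4.58), and replicate 4 was low for Mrpl38 (6.27, others 6.43 to 6.45). In the rCPS1 group, replicate 1 was high for Mrpl32 (5.75, others 5.35 to 5.42) and for Mrps33 (6.78, others 6.61 to 6.64), and replicate 2 was low for Mrps15 (7.06, others 7.32 to 7.36).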

How the results depend on the processing

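No gene passed at an adjusted p under 0.05 in any of the 15 alternative fits. Leaving out 1 array at a time gave 0 to 5 members lower and 0 to 1 higher at an unadjusted p under 0.05. It gave 1 to 7 members lower and 0 to 1 higher without overlap, and 47 to 62 lower by sign. The mean difference then lay between -0.17 and -0.07 over all members, -0.17 and -0.06 over the large subunit, -0.19 and -0.08 over the small, and -0.01 and 0.05 for large minus small. The extremes of 0 and 5 came without rTF replicate 2 and without rCPS1 replicate 1, where only Mrpl19 was shared with the 3 genes named in the report. Without rCPS1 replicate 2 or 4 only 1 member had such a p. Without overlap, 7 were lower without rCPS1 replicate 1, 4 without rTF replicates 1 or 3 or rCPS1 replicate 2, and 3 without rTF replicate 4 or rCPS1 replicate 3. No share of all genes is given beside the counts of p and overlap with 1 array left out, nor beside the count of overlap with quantile normalization. Groups of 4 and 3 arrays separate by chance more often than groups of 4 and 4. These counts without overlap thus cannot be read against the 1.97% of all genes, which holds for 4 against 4 arrays. Quantile normalization gave 2 members lower without overlap. Under the other settings 55 to 59 members lay lower, and the mean difference was -0.14 to -0.11.

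Same-numbered arrays did not deviate together (r = -0.12, -0.03, -0.01 and 0.03 across genes), and no label pairs them. With the replicate block 59 members lay lower and 3 had an unadjusted p under 0.05, of which 2 (Mrpl14 and Mrpl19) were shared. The share of all genes with such a p was not taken for this setting, so the count of 3 has no background beside it. The smallest adjusted p over all genes was 0.995.

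Of 47 genes named by rule, 30 kept their direction in every setting and 17 did not, in 30 of 703 values. The cause was not tested. With 1 array left out the difference ranged from -0.20 to 0.0517 for Mrpl10, -0.0011 to 0.0854 for Mrpl23, -0.30 to 0.0605 for Mrpl32, -0.0583 to 0.23 for Mrpl38, -0.0279 to 0.0477 for Mrpl39 and -0.0064 to 0.13 for Mrpl57. It ranged from -0.0676 to 0.0599 for Mrps11, -0.28 to 0.0394 for Mrps12, -0.21 to 0.0341 for Mrps15, -0.10 to 0.21 for Mrps18a, -0.22 to 0.0346 for Mrps22, -0.10 to 0.0904 for Mrps31, -0.17 to 0.0438 for Mrps34 and -0.0115 to 0.18 for Ptcd3. Array weights gave -0.0486 for Mrps18a and 0.0377 for Mrps34. The row of lowest mean gave 0.14 for Mrpl12, 0.19 for Mrpl36 and 0.0296 for Mrps18c, and the mean of all rows gave 0.0279 for Mrpl12. The filter on dim rows removed Mrps14, Mrps36 and Mrpl48.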

Other observations

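The members were unevenly spread over the genome. Chromosome 11 held 11 of the 71 (15.5%, against 7.5% of array genes) and chromosome 17 held 8 (11.3%, against 4.87%). The difference between the groups was not compared by chromosome.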
